A study of Rattus norvegicus with 20 samples.

Results

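The 10 genes described here make bile acids from cholesterol, move bile acids through the hepatocyte or export sterols from it: Cyp7a1, Cyp8b1, Cyp27a1, Cyp7b1, Baat, Slc10a1, Abcb11, Abcg5, Abcg8 and the repressor Nr0b2. They were chosen by gene symbol in the platform annotation, which gives each of them 1 probe set, so they are 10 of 14217 genes with a probe set of their own. All 10 passed the filter on low values and are among the 11576 genes tested, although Abcg8 and Cyp7b1 passed it on few arrays. Liver RNA came from male Sprague-Dawley rats that were 4 weeks old on arrival, had 7 d of acclimatisation on a commercial diet and then ate an experimental diet for 15 d. The 4 diets held no lignan, 0.2% sesamin, 0.2% episesamin or 0.2% sesamolin, and 5 of the 7 rats of each diet were arrayed, the heaviest and the lightest having been left out. Sesamin and episesamin are sesame lignans that are epimers of each other, and sesamolin has an additional oxygen between its furofuran core and an aromatic ring. The study asked how these lignans change hepatic gene expression.

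Bile acids are made in hepatocytes by a classic pathway that Cyp7a1 starts and limits, and by an alternative pathway that uses Cyp27a1 and Cyp7b1. Cyp8b1 sets how much of the product is cholic acid, Baat joins bile acids to taurine or glycine, Slc10a1 takes them up from portal blood and Abcb11 pumps them into bile. Abcg5 and Abcg8 are half-transporters that pair to move cholesterol and plant sterols into bile, and Nr0b2, also called SHP, is a nuclear receptor without a DNA-binding domain that is induced by the bile acid receptor and represses Cyp7a1 and Cyp8b1.

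Across the members, the sterol half-transporter Abcg5 was the single gene that passed the test, and it was higher with episesamin and with sesamolin than without lignan. With sesamin, Abcg5 was at a log2 difference of 1.39, beside 1.13 with sesamolin, but missed the threshold (limma adjusted p = 0.0595). Its partner Abcg8 did not pass in any comparison. Cyp7a1 was at its lowest mean with episesamin and Nr0b2 at its highest with sesamolin, but both varied widely among rats of a diet and neither passed. The 4 other enzymes and the 2 bile acid transporters did not pass either. In the F test over the 4 diets, 1 of the 10 members was called (Abcg5, adjusted p = 0.00927), where 4.89% of all genes tested were.

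Levels below are quantile-normalized intensities on a linear scale, given as mean ± SD of 5 rats, and 17.8, the 40th percentile of all normalized values, is the level used as the filter. Log2 differences carry the SE of a linear model fitted with limma over the 20 arrays together, on the scale of log2(intensity + 5.85), which understates changes of dim genes. A gene is called at a Benjamini-Hochberg adjusted p below 0.05 over all 11576 genes, and intervals cover 95%. The 3 comparisons with the lignan-free diet share its 5 arrays, so their values are not independent of each other. In whole liver, fewer cells of a type and less RNA per cell cannot be told apart. Mean raw intensity of the arrays ran from 159 to 271, and 6 arrays were below 200. Of these, 1 was lignan-free, 1 sesamin, 2 episesamin and 2 sesamolin. The diet averages of this intensity were 247, 236, 213 and 221 in the same order, and their differences were not tested. Hepatocyte markers were abundant, as the liver label calls for: the summed level of the 6 tested of 7 listed (Alb, Ttr, Apoa1, Serpina1, Apob, Cps1) ran from 60837 to 70378 over all arrays. Of the 6, Apob, the protein of liver lipoproteins, was called lower with sesamolin (-0.30 ± 0.09, adjusted p = 0.0498) and was at -0.30 with episesamin (adjusted p = 0.0519). Precision is limited by having 5 arrays a diet.

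Abcg5 and Abcg8 lie head to head on chromosome 6, and 205 bases separate their annotated start sites. This window is shown because both half-transporters start from it while their probe sets differed in the outcome. It is chr6:15717731-15717935 of the build GRCr8, from RefSeq, on the strand of Abcg5, with the only match to a searched motif in capitals, TATAAA.
Abcg5 and Abcg8: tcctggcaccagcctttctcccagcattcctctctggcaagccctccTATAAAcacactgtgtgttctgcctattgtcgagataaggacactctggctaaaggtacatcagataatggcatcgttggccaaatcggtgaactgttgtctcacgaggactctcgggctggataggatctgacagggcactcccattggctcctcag
The first T of the match lies 158 bases before the start of Abcg5. Seen from Abcg8 it is on the other strand, with its farthest base 53 bases before that gene's start. No nuclear receptor half-site AGGTCA was found on either strand in the 250 bases before either start.

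Abcg5 (probe set 1369455_at) gave normalized intensities of 15.9, 3.28, 28.7, 12.0 and 20.3 on the 5 lignan-free arrays. With episesamin they were 87.0, 60.9, 49.1, 65.3 and 42.6. All 5 episesamin arrays lay above all 5 lignan-free arrays, a separation that 6.85% of all genes tested showed for this pair of diets, and Abcg5 was the only one of the 10 members to show it. The mean rose from 16.04 ± 9.47 to 61.0 ± 17.1, a log2 difference of 1.704 ± 0.31 (n = 5, limma adjusted p = 0.00285), while 2.91% of all genes were called higher with episesamin. Since the lignan-free mean lies below the filter level, a bound is also given: with each lignan-free array below that level raised to it, the ratio of geometric means was at least 2.94-fold. The call held under each of the 33 alternative settings run (adjusted p from 0.000852 to 0.0270), and the log2 difference ran from 1.29 with an offset of 16 to 2.19 with none.

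With sesamolin the 5 rats had Abcg5 intensities of 25.6, 32.1, 31.98, 59.0 and 48.1. Of these, 4 lay above the highest lignan-free array and the lowest did not. The mean was 39.4 ± 13.7, a log2 difference of 1.13 ± 0.31 (n = 5, adjusted p = 0.0375), and the rise by the same bound was at least 1.86-fold, with 3.28% of all genes called higher. The call ended under 11 of the 33 alternatives, at adjusted p values up to 0.0955: without normalization, with only the 2 diets in the fit, without the 6 dim arrays, when the 4 arrays numbered 1 were dropped together, and when lignan-free replicate 1, 2 or 4 was left out, or sesamolin replicate 2, 3, 4 or 5.

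With sesamin the intensities were 56.9, 23.9, 57.8, 65.3 and 41.4. Again 4 of 5 rats lay above the highest lignan-free rat, and the lowest, replicate 2, lay within the lignan-free range. The mean of 49.1 ± 16.5 gave a log2 difference of 1.39 ± 0.31 with an interval from 0.74 to 2.05, which did not pass (n = 5, adjusted p = 0.0595). It passed under 6 of the 33 alternatives, among them without sesamin replicate 2 (adjusted p = 0.0180) and without lignan-free replicate 3 (adjusted p = 0.0224). The comparison with sesamin called 0.432% of all genes, the fewest of the 3 lignans. The adjustment was made within each comparison, so equal p-values can fall on different sides of the threshold. The unadjusted limma p for Abcg5 was 0.000272 with sesamin and 0.00190 with sesamolin, so the calls do not rank these 2 lignans.

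The order of the mean Abcg5 levels was episesamin, sesamin, sesamolin, lignan-free, and the 3 lignans did not differ beyond their spread. Episesamin minus sesamin was 0.31 on the log2 scale (interval from -0.34 to 0.96), sesamolin minus sesamin was -0.27 (from -0.92 to 0.38) and sesamolin minus episesamin was -0.58 (from -1.23 to 0.07). The last interval reaches 1.23 below 0, so these data do not show that the compounds act alike on Abcg5.

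Abcg8 (probe set 1369440_at) was above the filter level on 5 of 20 arrays and never reached 30. Its 5 lignan-free arrays read 18.9, 11.9, 26.7, 9.59 and 12.6. The diet means were 15.9 ± 6.95 without lignan, 15.2 ± 3.79 with sesamin, 12.4 ± 5.48 with episesamin and 12.5 ± 3.81 with sesamolin, and the diets overlapped throughout. The log2 differences from the lignan-free diet were -0.015 ± 0.22, -0.25 ± 0.22 and -0.22 ± 0.22 (adjusted p = 0.994, 0.572 and 0.617). With most arrays below the filter level, a fall of Abcg8 was not measurable by this probe set. Abcg5 started from a similar lignan-free mean of 16.04, and its rise was read. The Abcg8 interval with episesamin ran from -0.72 to 0.21. The differing outcomes are readings of 1 probe set each. Whether Abcg8 RNA did not rise or its probe set responds less was not tested.

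**Figure D1:**
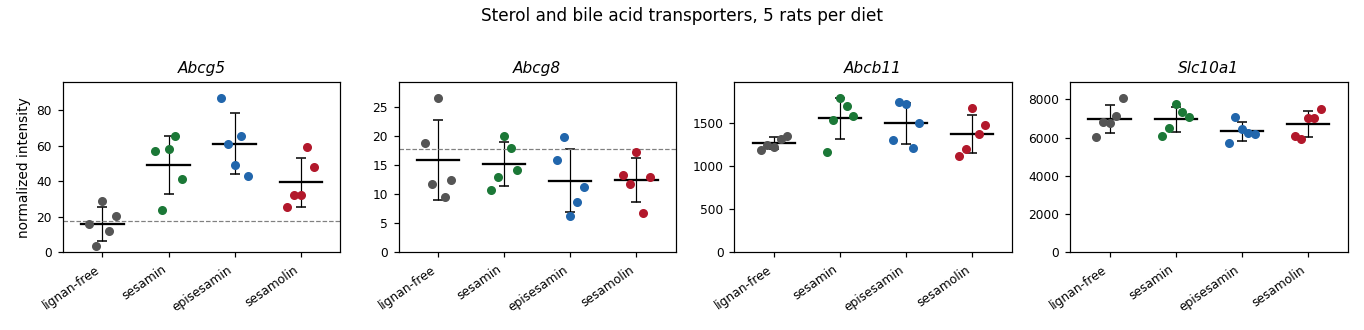
Normalized intensity (linear axis from 0) of Abcg5, Abcg8, Abcb11 and Slc10a1 in each of 5 rats per diet, in order of replicate number; bars show mean ± SD and the dashed line is the filter level of 17.8. All 5 episesamin arrays of Abcg5 lie above the lignan-free arrays, whereas Abcg8 stays around or below the filter level in every diet.

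Cyp7a1 (probe set 1368458_at), the rate-limiting cholesterol 7-alpha-hydroxylase, varied more among rats of a diet than nearly any other gene: its residual SD was 0.77 on the log2 scale, above that of 97.8% of genes tested, where the median gene had 0.26. The lignan-free rats read 455, 121, 197, 143 and 47.1. Those on episesamin read 109.5, 39.9, 26.3, 43.3 and 41.8, and 4 of these 5 lay below every lignan-free rat. The means were 193 ± 156 and 52.2 ± 32.8, a log2 difference of -1.57 ± 0.46 with an interval from -2.53 to -0.62, which missed the threshold (n = 5, adjusted p = 0.0515).

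Sesamin rats read 122.5, 168, 56.3, 52.9 and 70.3 for Cyp7a1 and sesamolin rats 125, 74.5, 57.8, 63.9 and 69.0. All 10 lay within the lignan-free range, below the lignan-free mean. The log2 differences were -0.78 ± 0.46 (adjusted p = 0.772) and -0.95 ± 0.46 (adjusted p = 0.250). The array numbered 1 was the highest of its diet for Cyp7a1 in 3 of 4 diets and the second highest in the other, on average 0.97 above its diet's mean on the log2 scale; what those 4 rats share was not tested. The episesamin difference was called under 9 of the 33 alternatives, with adjusted p from 0.0112 to 0.328 over all of them. Those that called it include no normalization (-1.79, adjusted p = 0.0208), median scaling (-1.67, adjusted p = 0.0315), the filter at the 60th percentile (adjusted p = 0.0337), an offset of 16 (adjusted p = 0.0460), dropping the 4 arrays numbered 1 (-1.46, adjusted p = 0.0478), and leaving out lignan-free replicate 5, sesamin replicate 2 or episesamin replicate 1. A fit with the replicate number as a block, given at the end, called it too.

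Cyp8b1 (probe set 1368435_at), the sterol 12-alpha-hydroxylase that steers synthesis to cholic acid, was highest with sesamin. The 5 sesamin rats were close together at 2541, 2537, 3011, 3321 and 2497. The lignan-free rats spread from 522 in replicate 3 to 2569 in replicate 5, with a median of 1507, and 2 sesamin rats lay above all of them. The means were 2781 ± 368 and 1538 ± 737, a log2 difference of 1.01 ± 0.33 (interval from 0.32 to 1.701), which did not pass (n = 5, adjusted p = 0.362). The other lignans lay between, at 1927 ± 602 with episesamin and 1768 ± 699 with sesamolin. Without the 6 dim arrays, which include lignan-free replicate 3, the differences for episesamin and sesamolin turned from 0.43 and 0.30 to -0.20 and -0.25.

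The 250 bases before the start of Cyp8b1 are shown because this gene and Nr0b2 gave the widest ranges of level among the members whose upstream sequence was at hand other than Abcg5. The window is chr8:130457593-130457842 of GRCr8, from RefSeq, on the minus strand, and it holds no match to any motif searched, so nothing is in capitals.
Cyp8b1: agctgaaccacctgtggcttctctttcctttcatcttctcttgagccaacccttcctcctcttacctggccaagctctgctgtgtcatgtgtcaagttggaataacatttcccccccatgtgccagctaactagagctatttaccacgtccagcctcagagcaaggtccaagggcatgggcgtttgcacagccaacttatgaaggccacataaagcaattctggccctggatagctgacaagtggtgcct

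Of the alternative pathway, Cyp27a1 showed small differences, and Cyp7b1 was too near the filter level to judge. Cyp27a1 (probe set 1387914_at), the mitochondrial sterol 27-hydroxylase, ran from 2837 to 3774 without lignan, from 2205 to 2922 with sesamin, from 2033 to 3194 with episesamin and from 2324 to 3122 with sesamolin. Its mean was lower with each lignan than without, by log2 differences of -0.22 ± 0.13, -0.24 ± 0.13 and -0.20 ± 0.13, none of which passed (adjusted p = 0.773, 0.312 and 0.414). Cyp7b1 (probe set 1388188_at), the oxysterol 7-alpha-hydroxylase, was above the filter level on 9 of 20 arrays and ran from 6.46 to 26.4 over all rats, too dim to measure a fall. Baat (probe set 1387508_at), the conjugating enzyme, was the steadiest of the members and ran from 4115 to 5436 over all 20 rats. Its 5 sesamolin rats all lay below its 5 sesamin rats, as 4.29% of genes tested did in either direction for this pair, with means of 4378 ± 340 and 5111 ± 176. The log2 difference was -0.23 ± 0.08 and did not pass (n = 5, adjusted p = 0.159). Against the lignan-free diet, sesamolin gave -0.18 ± 0.08 for Baat (interval from -0.35 to -0.020), which did not pass (limma adjusted p = 0.184). Sesamin and episesamin gave 0.042 and -0.083.

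**Figure D2:**
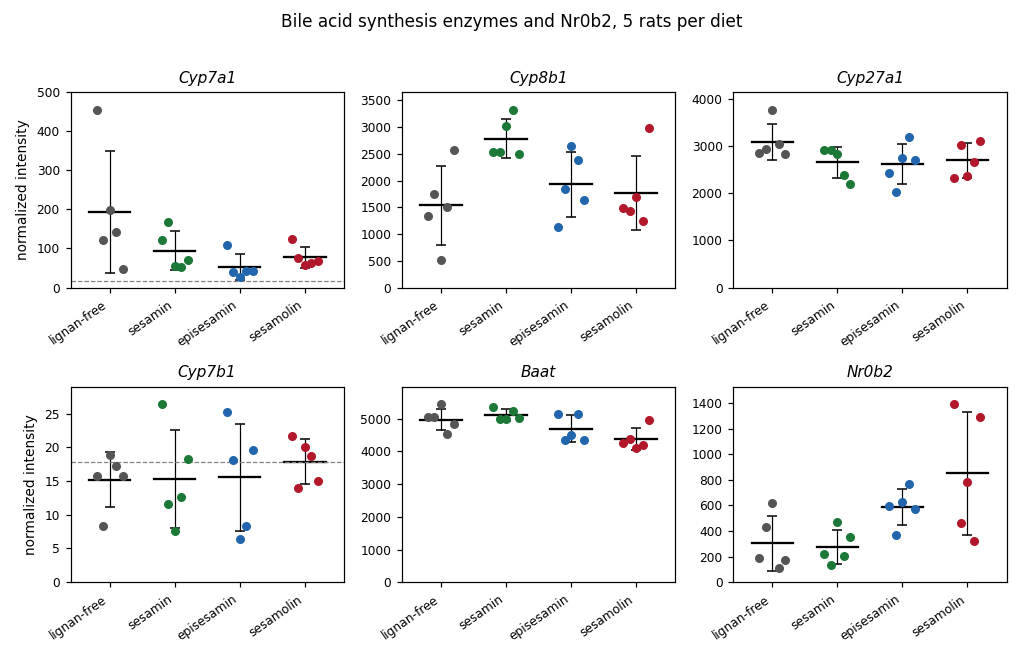
Normalized intensity (linear axis from 0) of the 5 bile acid enzymes and of Nr0b2 in each of 5 rats per diet, in order of replicate number; bars show mean ± SD and the dashed line is the filter level of 17.8. Cyp7a1 and Nr0b2 spread widely within a diet, and Baat ran only from 4115 to 5436.

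The bile acid carriers were abundant and nearly level. Slc10a1 (probe set 1368609_at), the sodium-dependent uptake carrier, had diet means of 6968 ± 748, 6947 ± 664, 6332 ± 493 and 6714 ± 681 for lignan-free, sesamin, episesamin and sesamolin. Its intervals exclude log2 differences from the lignan-free diet beyond -0.34 and 0.20. Abcb11 (probe set 1368769_at), the canalicular bile salt pump, read 1267 ± 68.5 without lignan and 1559 ± 241 with sesamin, and 4 of 5 sesamin rats lay above the highest lignan-free rat. The log2 difference of 0.28 ± 0.13 did not pass (n = 5, adjusted p = 0.665). With episesamin and sesamolin it was 0.23 ± 0.13 and 0.10 ± 0.13, and both signs turned without normalization between arrays, where the median of all genes moved to -0.25 and -0.22.

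Nr0b2 (probe set 1368376_at), the repressor of the classic pathway, had the widest spread among rats of a diet of any member, with a residual SD of 0.78 on the log2 scale, above 98.1% of genes. Lignan-free rats read 188, 428, 621, 109 and 176 and sesamin rats 221, 133, 471, 204 and 352. Episesamin rats read 598, 371, 626, 771 and 573 and sesamolin rats 1390, 462, 782, 326 and 1291. All 10 rats on these 2 diets lay above the lignan-free mean of 304 ± 214, but the ranges overlapped. The log2 difference was 1.18 ± 0.46 with episesamin (interval from 0.21 to 2.14, adjusted p = 0.159) and 1.53 ± 0.46 with sesamolin (interval from 0.56 to 2.50, adjusted p = 0.0559), with 0.0086 ± 0.46 for sesamin (adjusted p = 0.997). None passed. The sesamolin difference was called under 5 of the 33 alternatives, with adjusted p from 0.0204 to 0.250 over all of them. Those that called it include the filter at the 60th percentile (adjusted p = 0.0372), an offset of 16 (adjusted p = 0.0467), and leaving out lignan-free replicate 3 (1.86, adjusted p = 0.0204) or sesamolin replicate 4 (1.82, adjusted p = 0.0294). The fit with the replicate number as a block called it too.

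The 250 bases before the start of Nr0b2, chr5:151062910-151063159 of GRCr8 on the plus strand, from RefSeq, hold 1 match to TATAAA, in capitals, beginning 29 bases before the start, and no half-site AGGTCA.
Nr0b2: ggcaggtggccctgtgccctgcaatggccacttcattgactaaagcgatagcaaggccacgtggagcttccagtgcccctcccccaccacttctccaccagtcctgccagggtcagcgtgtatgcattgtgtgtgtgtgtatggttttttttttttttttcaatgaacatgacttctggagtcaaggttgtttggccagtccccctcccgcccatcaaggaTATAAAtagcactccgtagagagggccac
RefSeq upstream sequences were matched for 7 of the 10 members, all except Cyp7a1, Cyp7b1 and Abcb11. Both strands of the 250 bases before each start were searched for AGGTCA, for the same letters preceded by CA, for 2 copies of AGGTCA in the same direction spaced by 1 or 4 bases, and for TATAAA. The half-site occurred 2 times in Cyp27a1, where 1 copy was preceded by CA, and 2 times in Slc10a1, and in none of the other 5. In 33469 RefSeq windows of that length, 14.1% held AGGTCA, 1.33% held it preceded by CA, 0.0508% and 0.00299% held the repeats spaced by 1 and by 4, and 12.9% held TATAAA. No member's window held either repeat.

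**Figure D3:**
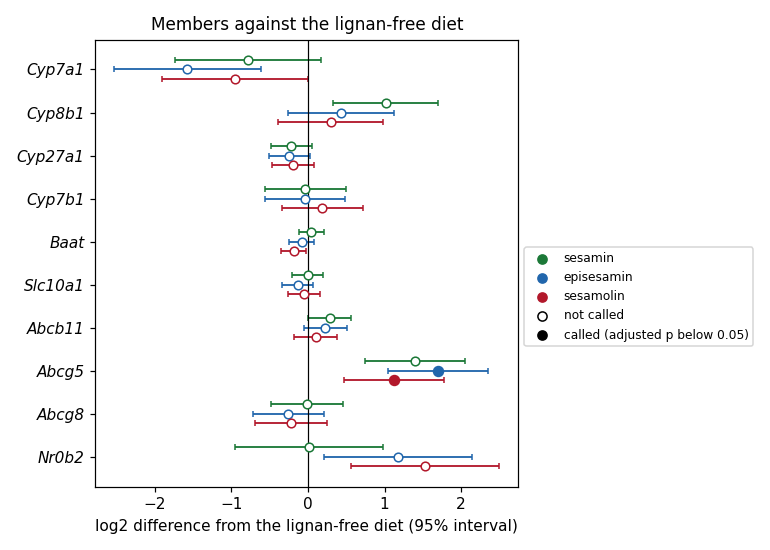
Log2 difference of each member from the lignan-free diet (x axis) with its 95% interval, for sesamin, episesamin and sesamolin; filled points are called and open points are not. Abcg5 with episesamin and with sesamolin are the filled points, while the intervals of Slc10a1 and Baat are narrow and close to 0. The Baat interval with sesamolin lies below 0, although Baat was not called.

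Counted by comparison, the share of members called can be set beside that of all genes. Sesamin against lignan-free called 0 of 10 members in limma, where 0.432% of all genes were called. Episesamin called 1 of 10, where 5.12% of all genes were called, and sesamolin 1 of 10, where 6.24% were. At an unadjusted p under 0.05 there were 3 members with sesamin (Abcg5, Cyp8b1 and Abcb11), where 7.45% of all genes were. There were 3 with episesamin (Abcg5, Cyp7a1 and Nr0b2), where 19.7% of all genes were, and 3 with sesamolin (Abcg5, Nr0b2 and Baat), where 20.3% were. Leaving out 1 array moved the number of all genes called with episesamin from 593 to between 372 and 633, by over 1.5 times without lignan-free replicate 4 (379) or 5 (372) or episesamin replicate 3 (386) or 4 (388). With sesamolin it moved from 722 to between 476 and 723, by over 1.5 times without lignan-free replicate 5 or sesamolin replicate 5 (476 each). The median log2 difference of the 10 members was 0.0027, -0.061 and 0.025 for sesamin, episesamin and sesamolin, beside -0.0095, -0.018 and -0.0095 for all genes. A single member called is too few to set these shares apart from the background.

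Between lignans, which were matched in dose and time, no member was called. Episesamin against sesamin had 1.23% of all genes called. At an unadjusted p under 0.05 it had 1 member, Nr0b2 at 1.17 ± 0.46 (adjusted p = 0.277), where 12.9% of all genes were. Sesamolin against sesamin had 3 members at an unadjusted p under 0.05, Nr0b2 at 1.52 ± 0.46 (interval from 0.55 to 2.49, adjusted p = 0.105), Cyp8b1 at -0.72 ± 0.33 (interval from -1.40 to -0.027, adjusted p = 0.317) and Baat, where 14.5% of all genes were at that p and 1.81% were called. Sesamolin against episesamin had 0 members and 663 genes at an unadjusted p under 0.05, and limma called 0% of all genes there. Its intervals were wide for Cyp7a1 (from -0.33 to 1.58) and Nr0b2 (from -0.61 to 1.32) and narrow for Baat (from -0.26 to 0.063).

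Around these members, 57 further genes of bile acid and sterol handling were listed, of which 44 were tested. The lists were chosen with earlier results of these data known, so their counts beside all genes are no independent test. Sesamin called 0 of the 44. Episesamin had 7 higher, where 2.91% of all genes were, and 2 lower, where 2.21% were. Sesamolin had 5 higher, where 3.28% of all genes were, and 2 lower, where 2.95% were. The median log2 difference of the 44 was -0.056, -0.060 and -0.14 for sesamin, episesamin and sesamolin. Of the 12 tested genes of bile acid synthesis, 4 were higher with each of episesamin and sesamolin. Akr1d1, Hsd3b7, Amacr, Acox2, Scp2, Cyp39a1 and Slc27a5 of the same list were not called with any lignan against the lignan-free diet. Acot8, a peroxisomal acyl-CoA thioesterase, rose from 237 ± 14.3 to 653 ± 102 with episesamin and 706 ± 110 with sesamolin, log2 differences of 1.43 ± 0.11 and 1.54 ± 0.11 (adjusted p = 7.43e-08 and 2.96e-08), against 287 ± 23.7 with sesamin (0.26 ± 0.11, adjusted p = 0.603). Abcd3, the peroxisomal importer of long-chain and bile acid precursor acyl-CoAs, rose by 0.75 ± 0.11 and 0.76 ± 0.11. Hsd17b4, the D-bifunctional protein that shortens the bile acid side chain, rose by 0.68 ± 0.07 and 0.61 ± 0.07. Slc27a2, a very long-chain acyl-CoA synthetase, rose by 0.61 ± 0.08 and 0.64 ± 0.08.

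Acot8, Abcd3 and Hsd17b4 were also called higher with episesamin than with sesamin (by 1.16 ± 0.11, 0.47 ± 0.11 and 0.41 ± 0.07) and all 4 were higher with sesamolin than with sesamin. In all 44 genes, 3 were higher with episesamin than with sesamin, where 0.821% of all genes were, and 5 with sesamolin than with sesamin, where 1.0% were. Akr1c14, a 3-alpha-hydroxysteroid dehydrogenase, was the gene of this group that fell, by 0.33 ± 0.09 with episesamin and by 0.51 ± 0.09 with sesamolin (adjusted p = 0.0386 and 0.00158).

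Of 9 tested genes of bile acid and phospholipid transport, 2 were higher with episesamin and 1 with sesamolin. The basolateral organic anion carrier Slco1a4 rose from 896 ± 209 to 2733 ± 553 with episesamin and 2653 ± 716 with sesamolin (1.61 ± 0.24 and 1.55 ± 0.24, adjusted p = 0.000259 and 0.000426), and was at 1498 ± 446 with sesamin (0.71 ± 0.24, adjusted p = 0.371). Abcb4, which moves phosphatidylcholine into bile, rose with episesamin by 0.84 ± 0.21 (adjusted p = 0.0281) and was at 0.60 ± 0.21 with each of the others (adjusted p = 0.457 for sesamin and 0.115 for sesamolin). In the F test over the 4 diets Abcb4 did not pass (adjusted p = 0.0872). Ephx1, the microsomal epoxide hydrolase, listed here for its reported part in bile acid uptake, was higher with sesamolin than with sesamin by 0.57 ± 0.12 (adjusted p = 0.0225). Of 9 tested genes of sterol handling, limma called 0 in each of the 6 comparisons.

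Of 14 tested regulators, Fgfr4, the receptor that relays the intestinal hormone FGF15 to Cyp7a1, fell from 249.4 ± 21.5 to 178 ± 33.7 with episesamin and 177 ± 17.0 with sesamolin (by 0.49 ± 0.14 and 0.48 ± 0.14, adjusted p = 0.0476 and 0.0472). Nr1i3, the drug-sensing receptor CAR, rose with episesamin by 1.19 ± 0.31 (adjusted p = 0.0323) and was at 0.98 and 1.01 with sesamin and sesamolin without passing. In the F test over the 4 diets neither Fgfr4 (adjusted p = 0.0727) nor Nr1i3 (adjusted p = 0.0728) passed. The bile acid receptor Nr1h4 (FXR), the oxysterol receptor Nr1h3 (LXR-alpha), Nr5a2 (LRH-1) and Hnf4a stayed between -0.26 and 0.17 against the lignan-free diet and none of them passed.

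**Figure D4:**
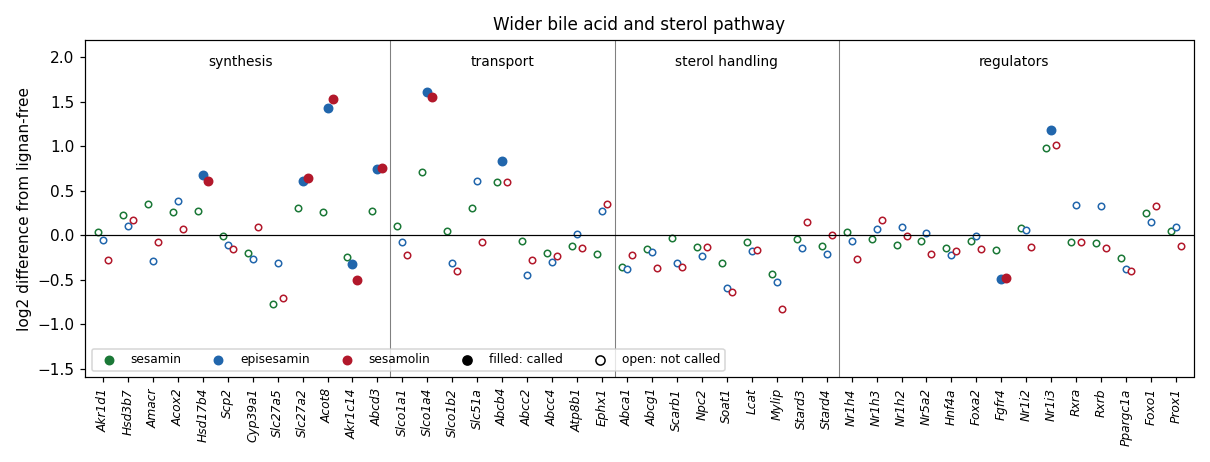
Log2 difference from the lignan-free diet (y axis) of the 44 tested genes listed around the members, grouped as synthesis, transport, sterol handling and regulators, for sesamin, episesamin and sesamolin; filled points are called and open points are not. Filled points occur for episesamin and sesamolin and for no gene with sesamin.

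The genes whose profile over the 20 arrays was most like that of Abcg5, by the root mean square difference of log2 values each set to 0 at the lignan-free mean, were Nceh1 (0.46), Decr2 (0.53) and Decr1 (0.54), where Abcg5 itself lay 1.32 from its lignan-free mean. Nceh1 hydrolyses cholesteryl esters, and Decr2 and Decr1 are dienoyl-CoA reductases of peroxisomes and mitochondria. The 3 genes were picked for this likeness, so log2 differences near those of Abcg5 follow from the choice. Nceh1 was at 0.88, 1.54 and 1.22 with sesamin, episesamin and sesamolin, and the last 2 of these were called (adjusted p = 0.00120 and 0.00830). In the same order Decr2 was at 0.93, 1.28 and 1.27 and Decr1 at 0.93, 1.41 and 1.36. Both were called with all 3 lignans, with sesamin at limma adjusted p = 0.000113 for Decr2 and 1.31e-06 for Decr1.

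Some markers of other cells moved beside these results. Of 6 Kupffer cell and macrophage markers tested of 8 listed, 1 was lower with episesamin, where 2.21% of all genes were, and 4 with sesamolin, where 2.95% were. Their summed level ran from 3599 to 4228 without lignan and 2558 to 4023 with sesamin. It ran from 2622 to 3325 with episesamin and 1888 to 3021 with sesamolin. Of 5 endothelial markers tested of 6, 2 (Lyve1 and Kdr) were lower with each of episesamin and sesamolin, where 2.21% and 2.95% of all genes were. With these 2 lignans Pecam1 was at 0.30 and 0.26, Tek at 0.020 and 0.072 and Stab2 at 0.051 and -0.16, none of them called. Lyve1 and Kdr were the brightest of the 5, with means of 1313 and 962 without lignan. The sum of the 5 ran from 2682 to 3119 without lignan and 2567 to 2770 with sesamin. It ran from 2117 to 2506 with episesamin and 2111 to 2613 with sesamolin. The 6 bile duct markers tested of 8 had sums from 272 to 320 without lignan, 256 to 329 with sesamin, 267 to 364 with episesamin and 346 to 392 with sesamolin, with none called by limma. Epcam was the brightest of the 6, with means of 134 without lignan and 186 with sesamolin. With sesamolin Slc10a2 was at -0.46, while the other tested markers of this list had positive log2 differences. Of 5 enterocyte markers, which are listed because gut also expresses Abcg5, 2 were tested, Fabp2 and Alpi, and neither was called. Their sums ran from 173 to 275 without lignan, 112 to 182 with sesamin, 73.5 to 185 with episesamin and 90.02 to 189 with sesamolin. Fabp2 made up most of the sum, with a mean of 202 without lignan, and was at -0.60 with sesamin, -0.79 with episesamin and -0.56 with sesamolin. Alpi never exceeded 21.9 and was at 0.34 with sesamin, 0.34 with episesamin and -0.039 with sesamolin. The part of these cells in the results above was not tested.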

How the data were processed

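Hepatic RNA of each rat was labelled as biotinylated cRNA and hybridised to its own Affymetrix array, per the labels' protocols. The values deposited by the authors are linear intensities for 31099 probe sets on 20 arrays, and how probe pairs were summarised is not given in the sources consulted. They carried no common scale, so arrays were quantile normalized. The offset (5.85) is the 20th percentile of the normalized values. The platform annotation pairs 20832 probe sets with a single symbol and 436 with more than 1, and does not list 9831. The 57 control probe sets were left out. Probe sets above 17.8 on at least 5 arrays were kept, and the brightest stood for its gene. A linear model with 4 diet means was fitted with limma 3.58.1 in R 4.3.3 and tested on simulated data. P-values measure the spread between rats.

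The members, the marker and pathway lists and the naming rule were chosen with earlier results of these data known. Named genes are the 10 members, every gene of the pathway lists called in any of 6 comparisons, 5 regulators (Nr1h4, Nr1h3, Nr5a2, Hnf4a, Fgfr4) and the 3 genes most like each called member. Some markers, and the genes of the synthesis list that were not called, are also named beside the counts of their lists. Stellate cell (7 tested of 7), exocrine pancreas (1 of 6) and red blood cell (3 of 4) markers had 0, 1 (Cela1, higher with episesamin) and 0 calls. The alternatives were other scalings, offsets, filters, probe set rules, variance models and subsets of arrays, 33 in all.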

Additional observations from a re-analysis of the deposited data

Results flagged for a closer look

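Of the 40 sets of 5 rats examined (10 members in 4 diets), 2 held a rat far from the other 4 of its diet, and chance alone gives about 1 in 20. Cyp27a1 read 3774 in lignan-free replicate 3, above the other 4 at 2837 to 3042. Cyp7b1 read 8.32 in lignan-free replicate 2, below the other 4 at 15.8 to 18.9, all near or below the filter level of 17.8.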

How the results depend on the processing

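Over 33 alternatives (20 leaving out 1 array each), 1926 values of a member's comparison were recomputed: 1827 kept direction and side of the threshold, 20 passed newly, 11 no longer passed and 68 changed sign, none of which was called in either fit. Members called were 2 with episesamin under median scaling. Without normalization they were 2 with episesamin and 0 with sesamolin. An offset of 16 gave 1, 2 and 2 for sesamin, episesamin and sesamolin, and so did a filter at the 60th percentile, with 2 in the F test. Trended and robust variances gave 1 with sesamin, and fitting only the diets compared gave 0 with sesamolin. Without the 6 dim arrays 1 was called with sesamin and 0 with sesamolin. Without the arrays numbered 1 it was 2 with episesamin, 0 with sesamolin and 0 in the F test. Leaving out 1 array gave 0 to 1 with sesamin, 1 to 2 with episesamin, 0 to 2 with sesamolin, 1 to 2 in the F test and 0 between lignans. The genes that entered or left were Abcg5, Cyp7a1 and Nr0b2, and the cause was not tested.

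The labels give no meaning to the replicate numbers, and for that reason they were not treated as pairing the rats. Over all numbers, 10 of 30 same-numbered pairs correlated above 0.1 in their deviations from the diet means. Of the 20 arrays, 10 correlated best with one of their own number, among them all 4 numbered 1. The count that chance gives was not computed, so these values do not exclude a shared factor. The arrays numbered 1 did deviate together, all 6 pairs lying at 0.126 to 0.247, against 4 of the other 24 pairs above 0.1. With the number as a replicate block, 2 members were called with episesamin and 2 with sesamolin, Cyp7a1 (adjusted p = 0.0135) and Nr0b2 (adjusted p = 0.0444) being the additions, and the genes called were 51, 696 and 858 for sesamin, episesamin and sesamolin against 50, 593 and 722 without it.

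Sign changes, as log2 differences. Median scaling, against lignan-free: sesamin Nr0b2 -0.092, Abcg8 0.024, Baat -0.025, Cyp7b1 0.011 and episesamin Cyp7b1 0.012. Against sesamin: episesamin Cyp7b1 0.00076 and sesamolin Slc10a1 0.0076. No normalization: sesamin Nr0b2 -0.080, Abcg8 0.042, Baat -0.013 and Cyp7b1 0.016, Abcb11 -0.011 with episesamin and -0.087 with sesamolin, and Cyp27a1 -0.096 for sesamolin against sesamin. The offset of 16 gave Cyp7b1 0.0035 for episesamin against sesamin. Without the dim arrays, against lignan-free: sesamin Slc10a1 0.0092 and Cyp7b1 0.089, episesamin Cyp8b1 -0.20 and Cyp7b1 0.44, sesamolin Cyp8b1 -0.25. Between lignans: Cyp7b1 0.35 (episesamin against sesamin) and -0.041 (sesamolin against episesamin), Cyp7a1 0.11 and Cyp27a1 -0.073 (sesamolin against sesamin). Without the arrays numbered 1: Nr0b2 -0.047 for sesamin, and Cyp27a1 0.039 and Cyp7b1 0.0066 for episesamin against sesamin.

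Leaving out 1 array, signs changed within these ranges. Sesamin against lignan-free: Nr0b2 -0.28 to 0.33, Slc10a1 -0.053 to 0.053, Cyp7b1 -0.20 to 0.11, Abcg8 -0.13 to 0.067. Episesamin against lignan-free: Cyp7b1 -0.19 to 0.14. Sesamolin against lignan-free: Cyp8b1 -0.048 to 0.53, Slc10a1 -0.10 to 0.0028. Episesamin against sesamin: Abcb11 -0.16 to 0.016, Cyp27a1 -0.097 to 0.066, Cyp7b1 -0.16 to 0.17. Sesamolin against sesamin: Cyp7a1 -0.34 to 0.067, Cyp27a1 -0.042 to 0.074. Sesamolin against episesamin: Cyp27a1 -0.043 to 0.12, Abcg8 -0.10 to 0.16. Counts over all genes moved most without normalization, to 18, 263 and 264 for sesamin, episesamin and sesamolin against lignan-free, 12 and 23 for episesamin and sesamolin against sesamin (142 and 210 in the report's fit) and 198 in the F test (566). Fitting only the diets compared gave 31, 352, 376, 81 and 52, dropping the arrays numbered 1 gave 30, 356, 376, 77 and 114 with 319 in the F test, and dropping the dim arrays gave 295 with episesamin, 388 with sesamolin, 105 for sesamolin against sesamin and 293 in the F test. Median scaling gave 65 and 81 for episesamin and sesamolin against sesamin. Leaving out 1 array moved counts between lignans by over 1.5 times in these cases: episesamin against sesamin 92, 84 and 86 without sesamin replicate 4, sesamin replicate 5 and episesamin replicate 5, and sesamolin against sesamin 134, 137, 122 and 116 without sesamin replicates 3, 4 and 5 and sesamolin replicate 3. Low signal limits Abcg8 and Cyp7b1, which were below the filter level on most arrays.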
